A study of Mus musculus with 10 samples.

Results

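Guanylate-binding proteins are large GTPases of the dynamin superfamily whose genes are switched on by interferons, most strongly by interferon-gamma. Once made, they bind and hydrolyse GTP, assemble into coats on vacuoles or on bacteria, and help inflammasomes to form. In brain they are known from microglia, endothelium and infiltrating immune cells exposed to interferon, among other cells. The mouse genes examined here were Gbp2, Gbp2b, Gbp3, Gbp4, Gbp5, Gbp6, Gbp7, Gbp8 and Gbp9, chosen by matching Ensembl identifiers to these symbols. All 9 were found among the 56884 rows of the count table, and 8 had enough counts to be tested.

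The transcripts were measured by bulk RNA-seq in the hippocampus of 10 ovary-intact female P301S (PS19) mice, which carry human Tau with the P301S mutation under the mouse prion protein promoter on a mixed B6;C3 background. At 6 months of age 5 mice received a 10 mm implant releasing dihydrotestosterone (DHT), an androgen that cannot be turned into estrogen, and 5 received an empty (void) implant. All were collected 12 weeks later at 9 to 9.5 months, so every mouse, controls included, carried the Tau transgene and an implant. The comparison asks how an added androgen alters hippocampal gene expression in female tauopathy. Mice were housed with others of the same treatment and the library numbers of the groups do not interleave, so neither cage nor library number can be told apart from treatment. Total counts ranged from 27188854 to 47113661 with void and from 33523527 to 45947784 with DHT. In bulk tissue, more cells of a type and more RNA per cell cannot be told apart.

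On chromosome 3 the family lies in the order Gbp5, Gbp7, Gbp3, Gbp2b, Gbp2, and on chromosome 5 in the order Gbp8, Gbp9, Gbp4, Gbp10, Gbp6. RefSeq promoters, 250 bases before to 50 after each start on the build GRCm38.p6, were available for 5 of the 9 members, all on chromosome 3. Each of the 5 contained the letters GAAA, any 2 bases and GAAA again, searched on both strands, which are the core of the interferon-stimulated response element (ISRE), against 3.99% of all 27025 genes with a promoter in the same table. The stretches are shown because they are the feature these promoters share, with the core in capitals as it reads on the plus strand, in gene order.
Gbp5, chr3:142496759-142496788, plus strand: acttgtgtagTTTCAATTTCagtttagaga
Gbp7, chr3:142530273-142530302, plus strand: gtgtgtgcagTTTCAGTTTCagttctccat
Gbp3, chr3:142559989-142560018, plus strand: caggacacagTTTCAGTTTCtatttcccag
Gbp2b, chr3:142594700-142594729, plus strand: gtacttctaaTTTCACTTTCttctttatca
Gbp2, chr3:142620594-142620623, plus strand: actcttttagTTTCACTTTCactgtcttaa
The first capital lies 165 bases upstream of the start in Gbp5, 53 in Gbp7, 45 in Gbp3, 137 in Gbp2b and 59 in Gbp2. Gbp3 and Gbp7 share the same 10 letters, as do Gbp2 and Gbp2b. A second, overlapping core begins 39 bases upstream in Gbp3. Gbp3 had 2 starts listed, and both of its cores lie in the promoter of the same start. A gene was counted if any of its starts matched. The core was also found in 5 of 6 immunity-related GTPase genes, 10 of 16 type I interferon targets, 3 of 13 interferon-gamma targets and 0 of 3 related GTPases. The letters TTC, any 3 bases and GAA of the gamma-activated site (GAS), which read the same on both strands, were found in Gbp5 and Gbp7, against 9.55% of genes.
Gbp5, chr3:142496872-142496900, plus strand: tggccgttatTTCTCAGAAccaagcacag
Gbp7, chr3:142530239-142530267, plus strand: aagcagaagcTTCTCAGAAagtcagcaca
These GAS letters, in capitals, begin 52 and 87 bases upstream, and each of the 2 promoters holds another match farther upstream. A match of letters is a description of the sequence and not a measured binding site.

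The mice void 5 and DHT 3 stood apart from the other 8 mice at a set of genes. In both, 27 genes with at least 10 counts in each of the other 8 lay more than 2-fold under the lowest of those 8, and 16 of the 27 are annotated as pseudogenes. Another 9 genes, among them Lcn2 and Apold1, were higher in both. Gbp2b is one of the 27. Such genes were not counted for any other pair of mice, so these counts have no background to be set against. These genes were noticed after their values were seen, the background of each mouse is not given in the sources used here, and their part in the results was not tested. Values without the pair are given beside the members and lists whose calls or counts they alter.

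DHT-treated females had more transcript of Gbp2, Gbp3 and Gbp6, each at more than 2-fold the void level, while Gbp4, Gbp5, Gbp9 and Gbp2b did not pass the test. Of the 8 members tested, 3 were called higher and 0 lower, a call needing an adjusted p below 0.05 together with a log2 fold change past the limit of 1 (edgeR's quasi-likelihood test, Benjamini-Hochberg adjustment over 17622 genes). Over all genes tested, 2.17% were called higher and 0.0227% lower. With DESeq2 the same 3 members were called higher, against 2.22% of all genes. The median log2 fold change was 0.73 over the 8 members and 0.01 over all genes tested, and 7 of the 8 were positive. At an adjusted p under 0.05 alone, 4 members were higher, against 5.22% of all genes. These calls lay close to the threshold: leaving out void 10, void 11, void 4, DHT 1 or DHT 3 brought the count of called members to 0.

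**Figure D1:**
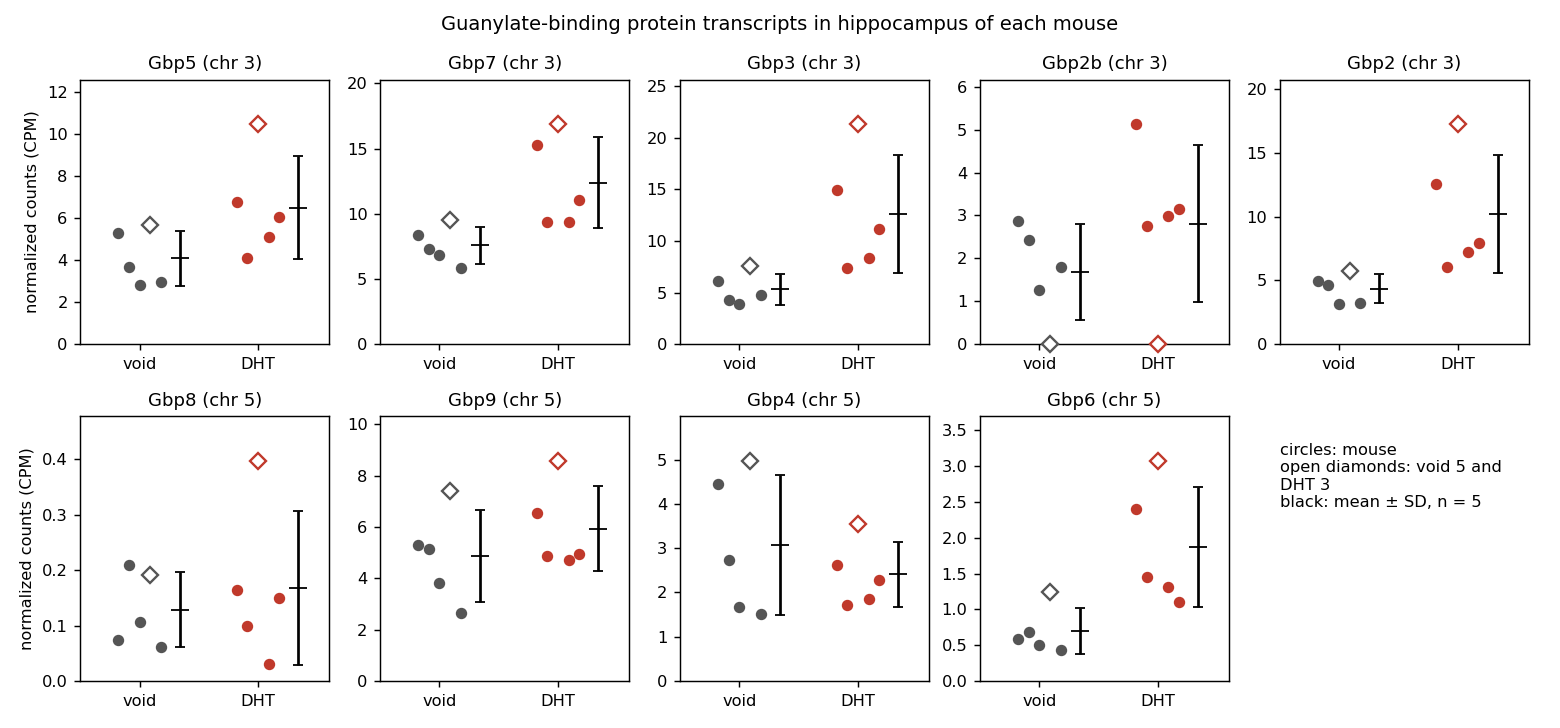
Normalized counts (CPM, counts scaled to a common library size; vertical axis of each panel) of the 9 members in each void and DHT mouse, on axes that start at 0. Points are mice, open diamonds are void 5 and DHT 3, and black bars are the mean ± SD with n = 5. For Gbp2 all DHT mice lie above all void mice, and for Gbp2b both open diamonds lie at 0.

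Among the genes on chromosome 3, Gbp2 encodes a prenylated member that coats the vacuoles of intracellular parasites. Its normalized level in the void mice 10, 11, 4, 5 and 9 was 4.98, 4.61, 3.17, 5.75 and 3.26 CPM (counts scaled to a common library size by TMM normalization). In the DHT mice 1, 2, 3, 5 and 6 it was 12.5, 6.05, 17.3, 7.24 and 7.92 CPM. Every DHT mouse was above every void mouse, which held for Gbp2 alone among the 8 tested members and for 5.39% of all genes tested, and DHT 1 and DHT 3 were well above the rest. The log2 fold change was 1.24 (SE 0.29, adjusted p = 0.0272). Without void 5 and DHT 3 it was 1.04, with an adjusted p of 0.0580, and with the pair kept and fitted as a covariate it was 1.19, with an adjusted p of 0.0102. In the covariate fit the count of called members was again 3.

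Gbp3, whose product is also recruited to parasite vacuoles, had 6.09, 4.28, 3.93, 7.54 and 4.78 CPM in the void mice, in the same order of mice throughout. With DHT it had 14.9, 7.35, 21.4, 8.38 and 11.2 CPM. The groups overlapped only because DHT 2 lay just below void 5, the highest void mouse. The log2 fold change was 1.26 (SE 0.29, adjusted p = 0.0256), and without void 5 and DHT 3 it was 1.10 (adjusted p = 0.0423).

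Gbp7 has been linked to assembly of the phagocyte NADPH oxidase and had the highest mean CPM of the family in void mice. Its levels were 8.34, 7.34, 6.85, 9.52 and 5.86 CPM with void. They were 15.2, 9.38, 16.9, 9.37 and 11.05 CPM with DHT. Void 5 lay slightly above DHT 2 and DHT 5, and the other DHT mice were higher. The log2 fold change of 0.71 (SE 0.19, adjusted p = 0.0490) passed the test but not the fold limit, and the adjusted p was 0.0923 without the pair of mice and 0.0192 with the pair as a covariate.

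Gbp5 encodes a prenylated member known for promoting assembly of the NLRP3 inflammasome. It had 5.28, 3.68, 2.83, 5.69 and 2.95 CPM with void and 6.75, 4.12, 10.5, 5.09 and 6.04 CPM with DHT. DHT 2 and DHT 5 fell within the void range, and DHT 3 stood above all other mice. Its log2 fold change of 0.68 (SE 0.27) did not pass the test (adjusted p = 0.200).

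Gbp2b, the mouse gene earlier named Gbp1, split the mice differently. It had 78, 81, 60, 0 and 58 counts in the void mice and 188, 112, 0, 100 and 106 counts in the DHT mice. The mice at 0 were void 5 and DHT 3, although these had the highest level of their group for Gbp2, Gbp3, Gbp5 and Gbp7. A count of 0 allows up to 3 counts, or 0.0959 CPM in void 5 and 0.0628 CPM in DHT 3, for counting error only. In the other mice it lay between 1.27 and 2.88 CPM with void and between 2.76 and 5.14 CPM with DHT. The log2 fold change over all mice was 0.75 (SE 0.84, adjusted p = 0.735). With the pair left out it was 0.73 (SE 0.28, adjusted p = 0.204), a similar change that still did not pass. The smaller error follows from leaving out the mice at 0.

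Among the genes on chromosome 5, Gbp6 was the member with the largest fold change in this fit and a low level. It had 0.590, 0.689, 0.507, 1.25 and 0.434 CPM with void. With DHT it had 2.40, 1.46, 3.08, 1.32 and 1.10 CPM. DHT 6 lay below void 5, and every other DHT mouse lay above all void mice. The log2 fold change was 1.45 (SE 0.35, adjusted p = 0.0329), and it was 1.47 without void 5 and DHT 3 (adjusted p = 0.0396). Without void 9, the adjusted p was 0.0574.

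Gbp4, reported to restrain IRF7-driven interferon production, had 4.46, 2.73, 1.67, 4.99 and 1.52 CPM with void. It had 2.62, 1.73, 3.54, 1.86 and 2.29 CPM with DHT. The groups overlapped fully, and the highest mice were void 5 and void 10. The log2 fold change was -0.33 (SE 0.34, adjusted p = 0.699), the only negative value among the members.

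Gbp9 had 5.31, 5.12, 3.81, 7.41 and 2.64 CPM with void and 6.53, 4.89, 8.59, 4.73 and 4.94 CPM with DHT. Here too the groups overlapped, and the log2 fold change was 0.30 (SE 0.26, adjusted p = 0.637). Gbp8 was barely detected, with 2, 7, 5, 6 and 2 counts with void and 6, 4, 19, 1 and 5 counts with DHT, and was not tested. Of the other family genes, Gbp10 had 0 to 5 counts with void and 4 to 30 with DHT and was not tested. Gbp11 had a log2 fold change of -0.02 (adjusted p = 0.987).

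**Figure D2:**
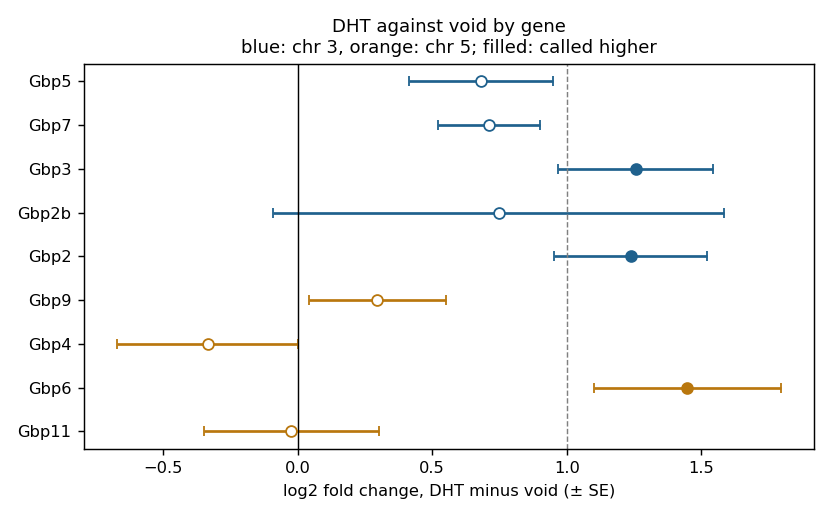
Log2 fold change of DHT minus void (horizontal axis) with its standard error for each tested family gene, blue for chromosome 3 and orange for chromosome 5. Filled points (Gbp2, Gbp3 and Gbp6) were called higher, the dashed line marks the fold limit of 1, and Gbp4 and Gbp11 lie below 0.

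To compare genes with each other, levels were divided by exon length. With void, the mean was highest for Gbp2, at 1.73 ± 0.445 CPM per kb (SD, n = 5). Gbp3 followed at 1.63 ± 0.455, Gbp7 at 1.35 ± 0.250 and Gbp9 at 0.939 ± 0.346 CPM per kb. Below them came Gbp5 at 0.616 ± 0.199, Gbp2b at 0.593 ± 0.396 and Gbp4 at 0.410 ± 0.212 CPM per kb. Neighbours in this order down to Gbp4 did not differ beyond their SDs. Gbp6, at 0.116 ± 0.0543, and Gbp8, at 0.0373 ± 0.0198 CPM per kb, each lay below the gene before it by more than the SDs. With the longest transcript as the length, Gbp3 passed Gbp2 at 1.99 CPM per kb, and Gbp5 passed Gbp9 at 1.09 against 0.963 CPM per kb.

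With DHT the order was Gbp2 at 4.05 ± 1.85 CPM per kb, Gbp3 at 3.87 ± 1.74 and Gbp7 at 2.21 ± 0.621, followed by Gbp9 at 1.15 ± 0.320. Gbp2b was at 0.995 ± 0.650, Gbp5 at 0.979 ± 0.368 and Gbp4 at 0.321 ± 0.0969 CPM per kb. Gbp6 reached 0.314 ± 0.141 CPM per kb, beside Gbp4, and Gbp8 stayed lowest at 0.0488 ± 0.0403. Gaps beyond the SDs separated Gbp7 from Gbp9, Gbp5 from Gbp4 and Gbp6 from Gbp8. With the longest transcript as the length, Gbp3 was again first at 4.71 CPM per kb, and Gbp5 at 1.73 was above Gbp9 at 1.18 CPM per kb.

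Reads from near-identical family genes may have been divided or lost in the counting. Coding sequences, aligned in pairs, were 90.0% to 98.4% identical among the chromosome 5 group, with Gbp11 included, and 66.3% to 82.5% identical among the chromosome 3 genes. Between the groups they were 65.6% to 76.5% identical. Gbp6 and Gbp10 were the closest pair at 98.4%, and 64.5% of the 100-base windows of Gbp6 transcripts occurred in another gene, mostly the neighbouring gene Gm43302, which had 0 counts in all mice. For Gbp7 10.0% of windows were shared, and for Gbp2 and Gbp2b none were.

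**Figure D3:**
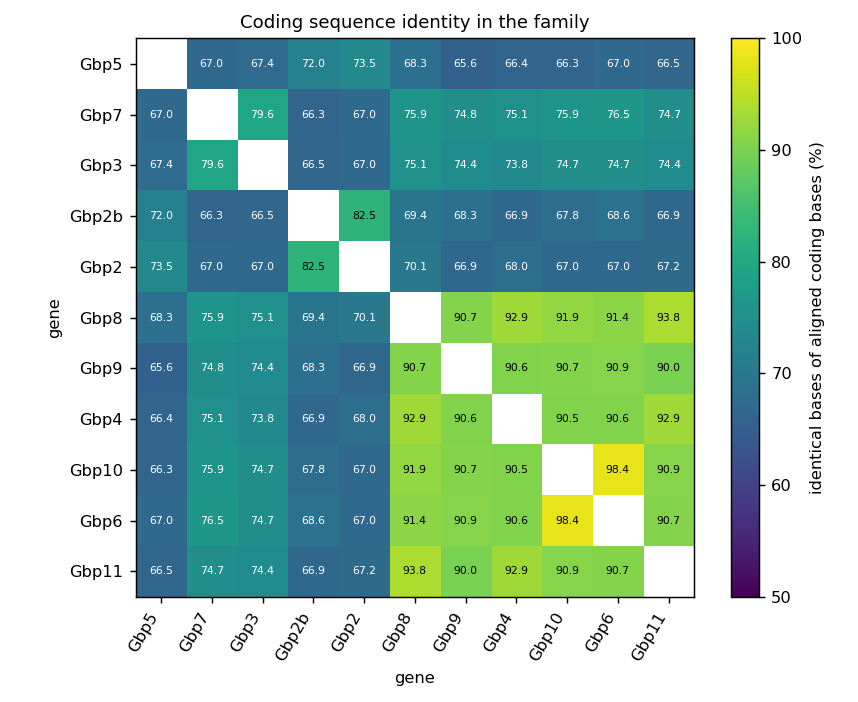
Percent of identical bases among aligned coding bases (colour scale from 50% to 100%) for each pair of family genes, listed along both axes in chromosome order with Gbp11 last. The chromosome 5 genes form a block at 90.0% or above, with 98.4% between Gbp6 and Gbp10.

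When Gbp6 and Gbp10 were counted as a single gene, the log2 fold change was 1.51 (adjusted p = 0.0351), close to that of Gbp6 alone. Gbp6 had 491 counts over all mice and Gbp10 had 58, so the sum was mostly Gbp6. Summed with their nearest paralogs, Gbp4 and Gbp11 gave -0.27 (adjusted p = 0.729), Gbp8 and Gbp11 gave 0.05 (adjusted p = 0.963), and Gbp9 and Gbp6 gave 0.50 (adjusted p = 0.385). Gbp8 had 57 counts against 262 for Gbp11. Sums of counted reads cannot show reads that were lost in the counting. Gbp4, Gbp8 and Gbp9 also share 60 to 61 bases of exon, so reads there cannot be assigned to one of them. Larger overlaps on the same strand were those of Gbp6 with Gm43302, at 1726 exon bases (29.0% of Gbp6), and of Gbp7 with a processed pseudogene, at 637 (11.3% of Gbp7). How reads there were counted is not given, and their part in the levels per kb was not tested.

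The members varied together among mice of the same group. After removal of the group means, Pearson's r of log2 CPM between pairs of the 7 tested members other than Gbp2b ranged from 0.74 to 0.96 over the 10 mice, with a median of 0.88 over the 21 pairs. Gbp2b correlated with them at -0.75 to -0.54. Over the 8 mice without void 5 and DHT 3, the 21 pairs ranged from 0.44 to 0.94 with a median of 0.78. Gbp2b, which had 0 counts in both mice left out, then correlated with the others at 0.70 to 0.93. These correlations are descriptions over mice that share each library's depth and cell content. The plot of deviations shows that void 5 and DHT 3 were above their group mean for every member but Gbp2b.

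**Figure D4:**
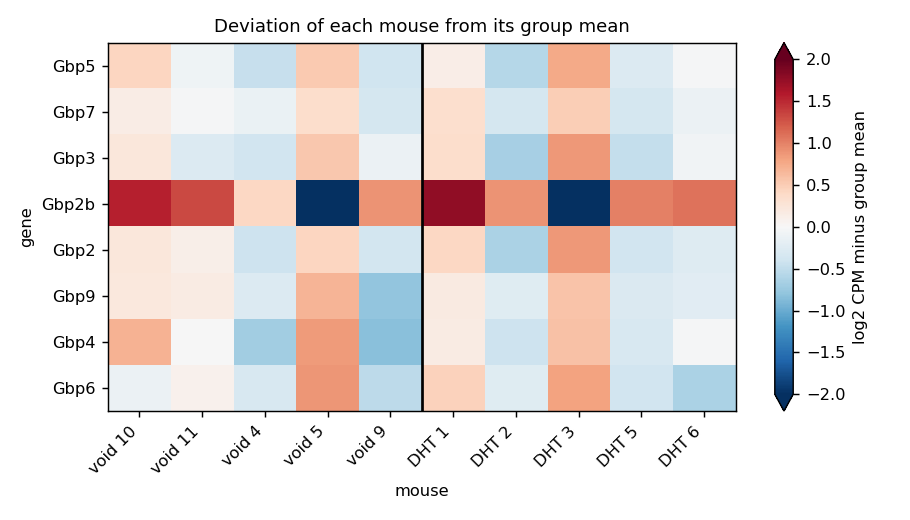
Deviation of each mouse (horizontal axis, void left of the line and DHT right) from the mean of its group in log2 CPM for the 8 tested members (vertical axis), from blue (below) to red (above). The colour scale saturates at 2 on either side of 0. Void 5 and DHT 3 are red for every gene except Gbp2b, where they are dark blue.

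By the same measure, the 5 genes outside the family most like Gbp7 were Parp14 (r = 0.98), Phf11d (0.98), Irgm2 (0.97), Lacc1 (0.96) and Cers4 (0.95), over 10 mice and among 17614 genes ranked. Their log2 fold changes with DHT were 1.04, 2.06, 0.61, 0.48 and -0.03. The adjusted p values were 0.0250 and 0.0138 for Parp14 and Phf11d. For Irgm2, Lacc1 and Cers4 they were 0.130, 0.140 and 0.870.

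The interferon pathway was then followed from ligand to target. None of the 9 ligand genes listed, among them Ifng and Ifnb1, had enough counts to be tested, and 7 had 0 counts in all mice. Of the receptor chains 1 of 5 tested was called higher. This was Ifnlr1, which had 0.333 ± 0.105 CPM with void and 0.692 ± 0.127 CPM with DHT (log2 fold change 1.03, adjusted p = 0.0292). Its call was lost in 7 of 10 fits with 1 mouse left out (without void 10, void 11, void 4, DHT 1, DHT 3, DHT 5 or DHT 6), without the pair void 5 and DHT 3, and with both other filters on low counts. Ifngr1, a chain of the interferon-gamma receptor, had a log2 fold change of 0.24 (adjusted p = 0.167) and its partner Ifngr2 one of -0.01 (adjusted p = 0.968). None of the 3 receptor kinases was called, and the log2 fold changes of Jak1 and Tyk2 were -0.03 and 0.03.

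Among the transcription factors, 4 of 9 tested were called higher, with a median log2 fold change of 0.63. The count was 2 without DHT 3 and 2 without the pair. Irf7, the master regulator of type I interferon genes, rose from 1.33 ± 0.318 to 5.96 ± 2.96 CPM (SD, n = 5; log2 fold change 2.18, adjusted p = 0.00761). Irf2 had a log2 fold change of 0.02 (adjusted p = 0.934). Of the 9 inhibitors, 2 were called higher, and 3 were without the pair. Usp18, which dampens signalling at the type I receptor, rose by 2.42 (adjusted p = 0.00670), while Socs1 had 0.76 (adjusted p = 0.204) and Ptpn2 had -0.08 (adjusted p = 0.830).

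Among the targets, 13 of 21 type I interferon genes were called higher (median log2 fold change 1.78), and 12 were without the pair. Ifi27l2a and Ifit1 rose by 2.56 and 2.10 (adjusted p = 0.00670 and 0.0202), and Cmpk2 had 0.17 (adjusted p = 0.176). Of 18 tested genes known as interferon-gamma targets, 7 were called higher (median 0.90), and 5 were without the pair. The chemokines Cxcl10 and Cxcl9 rose by 3.11 and 2.45 (adjusted p = 0.00761 and 0.0469), and Wars had -0.04 (adjusted p = 0.886). The immunity-related GTPases, which act with guanylate-binding proteins at vacuoles, had 2 of 7 called higher with a median of 0.97. This count was 0 without DHT 3 and without the pair, and 1 without void 10, void 11, void 4 or DHT 1. Irgm1 and Tgtp1 rose by 1.12 and 1.47 (adjusted p = 0.0130 and 0.0419), and Tgtp2, a close copy of Tgtp1 with which it may share reads, had 0.09 (adjusted p = 0.950). The median of the guanylate-binding proteins, 0.73, lay below those of these 3 target lists, and whether the lists differ was not tested.

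Partners of the family were mostly not called. Of 9 tested inflammasome genes 1 was called higher, the cytokine gene Il1b at 1.63 (adjusted p = 0.0117). The count was 0 without the pair and with at least 10 counts required in every mouse, and 2 without DHT 2. The median of these 9 genes was 0.67, and 9 of 9 were positive, against 9227 of 17622 genes tested. At an adjusted p under 0.05 alone, 2 of them were higher, against 5.22% of all genes. The log2 fold changes were 0.07 for Casp1 and 0.04 for Il18 (adjusted p = 0.944 and 0.923). None of the 6 prenylation genes was called, and their median was 0.05, with -0.02 for Pggt1b and 0.14 for Zmpste24. None of the 10 autophagy conjugation genes was called, and their median was -0.02, with 0.16 for Gabarap and -0.08 for Atg12. Of the related GTPases, Mx1 and Mx2 were called higher and the 3 atlastins were not. The count fell to 0 without void 11 or void 4 and to 1 without void 10 or DHT 1 and with the filter of 10 counts. Mx1 rose by 2.53 (adjusted p = 0.0164), and Atl1 had -0.14 (adjusted p = 0.216).

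**Figure D5:**
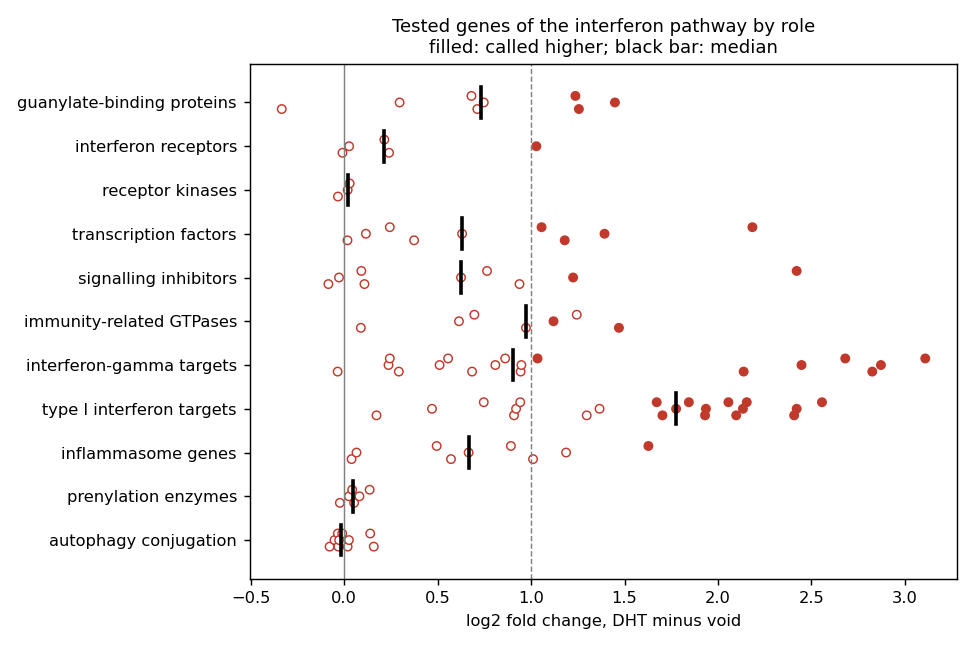
Log2 fold change of DHT minus void (horizontal axis) of each tested gene in 11 groups of the interferon pathway (vertical axis), filled where called higher, with the median of each group as a black bar. The medians are 0.73 for guanylate-binding proteins and 1.78 for type I interferon targets, and they lie near 0 for receptor kinases, prenylation enzymes and autophagy conjugation genes.

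Of the marker lists, the microglial, choroid plexus and neuronal sums did not overlap between the groups, and the sums of the other lists did. The summed level of 12 microglial markers was 515 to 596 CPM with void and 722 to 1081 CPM with DHT, with 2 of 12 called higher and 0 markers at 0 in all mice. The 12 choroid plexus markers summed to 117 to 1907 CPM with void and 2173 to 3066 CPM with DHT, with 3 of 12 called higher. The 7 neuronal markers summed to 6719 to 7455 CPM with void and 5844 to 6700 CPM with DHT, lower in every DHT mouse, with 0 of 7 called. The 7 astrocyte markers ranged from 5444 to 7581 and from 6211 to 7986 CPM, with Gfap called higher (log2 fold change 1.18, adjusted p = 0.00761). The 8 endothelial markers ranged from 222 to 320 and from 245 to 291 CPM. The 10 T and NK cell markers ranged from 0.959 to 1.55 and from 1.38 to 2.72 CPM. Only 2 of these 10, Cd4 and Trac, had enough counts to be tested, and neither was called. Trac made up the largest part of the sum, with means of 0.737 CPM with void and 0.724 CPM with DHT. The untested markers of this list each had a higher mean with DHT, at low counts. The 7 hippocampal subfield markers ranged from 1106 to 1656 and from 1349 to 1677 CPM. With the choroid plexus level as a covariate, 0 members and 0 genes of the whole table were called. The log2 fold changes of Gbp2, Gbp3 and Gbp6 were then 1.69, 1.47 and 2.20, with adjusted p from 0.552 to 0.578. Their SEs were 0.50, 0.51 and 0.60, against 0.29, 0.29 and 0.35 without the covariate. The choroid plexus sums of the groups did not overlap, so this fit cannot tell choroid plexus content from treatment. The part of choroid plexus, microglial, neuronal, astrocyte or T and NK cell content in the members' change was not tested.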

How the data were processed

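Hippocampal mRNA libraries, 1 for each of 10 mice, were sequenced by the authors as paired-end reads. The authors trimmed reads with HTStream, aligned them with STAR 2.7.10b per the labels, and deposited unnormalized raw counts for each gene. The methods name mm10 and the submitters' processing notes GRCm39. The counting tool, annotation release, strand setting and handling of reads that match several genes are not given in the sources used here. Lengths, gene order and identity came from GENCODE M21 and promoters from RefSeq, both on GRCm38, and were used to describe sequences and names. The lengths also gave the levels per kb, and the identity chose which paralogs were summed. They had no part in the main fit.

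The counts were fitted with edgeR 4.0.16 under R 4.3.3 (TMM, expression filter by group, quasi-likelihood test, Benjamini-Hochberg adjustment over 17622 genes). SE was obtained as the size of the log2 fold change over the root of the F statistic. The 2 groups came from the labels. The p-values measure the spread between mice. Correlations used log2 CPM with a prior count of 2. DESeq2 1.42.0, other normalizations and filters, each mouse left out, and a choroid plexus covariate were alternatives. Leaving out void 5 and DHT 3 together, or fitting them as a covariate, was added after seeing the data. Named genes outside the family are the first listed, highest and lowest of each list, and the 5 most like the member of highest mean CPM; the genes named for the pair of mice, Gm43302, Mx2 and the ligands were added once values had been seen. The values of 1 gene that this rule names are not reported here. The members and lists were chosen with earlier results of these data known. Coding-sequence identity replaced protein identity. On simulated counts the edgeR step was tested and returned the 2-fold increases set without bias in the median. Decreases were not checked for bias, and the simulated mice lacked the shared pattern of void 5 and DHT 3.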

Additional observations from a re-analysis of the deposited data

Results flagged for a closer look

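In 70 groups of 5 mice (members, paralogs and list sums by treatment), 7 had a highest or lowest mouse whose gap to the nearest, divided by the group's range, was above 0.71; chance alone would give about 3.5. Gbp10 in the DHT mice had a ratio of 0.912, with DHT 3 at 0.628 CPM and the next at 0.164 CPM. The summed interferon-gamma targets in the DHT mice had 0.789, with DHT 2 lowest at 312.7 CPM and the next at 452.3 CPM. Microglial markers in the void mice had 0.869, with void 10 highest at 595.5 CPM. Among DHT mice, pericyte markers had 0.73 with DHT 3 highest, astrocyte markers 0.819 and blood markers 0.746, both with DHT 1 highest. Hippocampal subfield markers in the void mice had 0.784, with void 5 lowest at 1106 CPM.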

How the results depend on the processing

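The 3 called members, Gbp2, Gbp3 and Gbp6, kept their call with DESeq2, DESeq2's size factors, library size alone and both other filters. Leaving out each mouse in turn, 0 to 3 members were called higher (3 without void 5, DHT 2, DHT 5 or DHT 6, and 2 without void 9). Gbp2's log2 fold change then ranged from 0.94 to 1.38 (adjusted p 0.0142 to 0.0840), that of Gbp3 from 0.96 to 1.42 (0.0129 to 0.0856), that of Gbp6 from 1.17 to 1.76 (0.0229 to 0.0991) and that of Gbp7 from 0.55 to 0.81 (0.0318 to 0.159), each lowest without DHT 3. Gbp7 had an adjusted p of 0.0610 with DESeq2's size factors and 0.0532 with library size alone. Genes called higher numbered 382, 175 (without DHT 1) to 513 (without void 9) with 1 mouse left out, 920 at an adjusted p alone, 0 with the choroid plexus covariate and 157 without the pair void 5 and DHT 3. Genes called lower numbered 4, 0 to 7 with 1 mouse left out, 7 with DESeq2, 8 without a filter, 2 with at least 10 counts in every mouse, 46 at an adjusted p alone, 0 with the covariate and 2 without the pair. With the covariate, whose marker sums did not overlap between the groups, 0 members were called and Gbp4 turned to 0.69 (adjusted p = 0.865). Gbp11 ranged from -0.24 to 0.29 with 1 mouse left out, turning to 0.29 without void 10, 0.0087 without void 5 and 0.06 without DHT 6, and was 0.016 without the pair. The cause was not tested. Of 164 log2 fold changes compared, 128 kept direction and side of the threshold, 31 fell short of the threshold and 5 turned. Of 228 list counts, 192 stayed within 1.5 times. No paired analysis was possible, because the labels name neither pairs nor litters. The paper states that littermates were randomized to the hormone treatment, and litter was not part of any fit here. Depth limits Gbp8 and Gbp10 most, with 57 and 58 counts in all.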
